A study of Mus musculus with 4 samples.

Results

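The conjugation enzymes described here are the UDP-glucuronosyltransferases (Ugt), glutathione S-transferases (Gst and the membrane-bound Mgst) and cytosolic sulfotransferases (Sult) of mouse liver cells in culture. Members were chosen by gene symbol alone, as every symbol in the deposited table that began with Ugt1a, Ugt2a, Ugt2b, Ugt3a, Sult or Mgst with a number, or Gst with a class letter and a number. They numbered 66 of the 24493 symbols: 20 Ugt, 22 Gst, 3 Mgst and 21 Sult genes. RNA sequencing had been done on 4 untreated cultures of C57BL/6 hepatocyte origin. Hep_3D libraries (n = 2) came from hepatocytes grown in 3D, and Bil_2D libraries (n = 2) from biliary cells that had been derived from hepatocytes and were grown in 2D. Clone 15C7 gave replicate 1 of both groups, and clone 19H5 gave replicate 2. Each library thus stands for 1 clone in 1 state. The labels name no animals or repeat experiments, and the p-values cover the spread among these 4 cultures only, some of which may be technical. Cell state and culture format cannot be told apart, because they went together in all 4 libraries.

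Values are TPM, the length-corrected share of each library, and are given in the order replicate 1, replicate 2. Of 12 hepatocyte markers, 8 rose and 0 fell in Hep_3D at an adjusted p under 0.05 by limma, beside 6.80% and 51.9% of all genes tested. Tat and Cps1, among the 8, were tested only because they reached 1 TPM in Hep_3D, and so had to be higher there. Alb stood at 15033 and 11217 TPM in Hep_3D, against 140 and 18.4 TPM in Bil_2D. Ttr, Serpina1a, Ass1 and Cyp2e1 did not pass. Ass1 overlapped, at 151 and 209 TPM in Hep_3D and 235 and 32.9 TPM in Bil_2D. The bile duct keratin Krt19 stood at 1.12 and 15.9 TPM in Hep_3D, against 752 and 1615 TPM in Bil_2D. Of 14 biliary markers, 10 were tested, of which 6 fell and 1 rose in Hep_3D. These shares are near the 51.9% and 6.80% of all genes tested. With TPM divided by size factors, as described below, 3 fell and 1 rose, beside 9.54% and 11.9% of all genes. The one that rose was Spp1, the gene of osteopontin, at 13093 and 9284 TPM in Hep_3D, against 4176 and 6092 TPM in Bil_2D (adjusted p = 0.0359 by limma). Muc1, an apical mucin, did not pass, at 1.23 and 2.89 TPM in Hep_3D and 0.203 and 0.52 TPM in Bil_2D. It too was tested only through its Hep_3D values. Epcam, Cftr and Sctr were each below 3 TPM in every library, so the Bil_2D cells matched their label on some duct markers and not on others. The pericentral enzyme Cyp2e1 had little signal in either group, with 1.96 and 3.53 TPM in Hep_3D and 2.04 and 2.55 TPM in Bil_2D. The 12 hepatocyte markers in the table summed to 2748 TPM in Bil_2D replicate 1 and 606 TPM in Bil_2D replicate 2, so the Bil_2D libraries differed from each other in residual hepatocyte transcripts. In such bulk samples, fewer cells of a type and less RNA per cell cannot be told apart. Depth is unknown, since TPM keeps none.

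Conjugation is the step of detoxification in which a polar group is joined to a drug, hormone or bile pigment so that it can be carried out of the cell. Ugt enzymes sit in the endoplasmic reticulum and add glucuronic acid from UDP-glucuronic acid. Gst enzymes add glutathione to electrophiles such as epoxides and the aldehydes of lipid peroxidation, and Mgst enzymes do so at membranes. Sult enzymes move sulfate from the donor PAPS to phenols, steroids and bile acids. Hepatocytes are the main site of all of these reactions, and human bile duct epithelium is known for the pi class of glutathione transferase.

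In Hep_3D cultures a large group of conjugation enzymes was higher, among them Sult1d1, Gstm1, Gstz1 and Mgst1, while Gsta1, Gsta4, the omega class, Mgst2, Mgst3 and Sult4a1 were lower. Of the 66 members, 43 had at least 1 TPM in at least 2 libraries and were tested with limma on log2(TPM + 1). With an adjusted p under 0.05, 21 of them rose (48.8%) and 7 fell (16.3%) in Hep_3D. Over all 12336 genes tested, 6.80% rose and 51.9% fell, and the median log2 fold change was -0.73, against 1.02 for the tested members. TPM values were also divided by size factors, found by the median of ratios over genes. On this size-factor scale the median of all genes was -0.02, and 23 members rose (53.5%) and 4 fell (9.3%), where 11.9% and 9.54% of all genes did so. All 21 that rose on the TPM scale also rose there, joined by Gstm2 and Ugt2a3, while Gsto1, Gsto2 and Mgst2 lost their call. Of the 43, 7 passed the filter on low values through 1 group alone and so had to differ. These were Gstm3, Sult1b1, Sult1e1, Ugt1a5, Ugt2a3 and Ugt3a2 through Hep_3D and Gsto2 through Bil_2D, and among the other 36 there were 17 that rose and 6 that fell. On the TPM scale the groups did not overlap for 27 members that were higher and 11 that were lower in Hep_3D, where 11.1% and 71.9% of all genes did not overlap in those directions and 83.0% in either. On the size-factor scale these numbers were 32 and 6 members, beside 33.6% and 34.7% of all genes and 68.3% in either direction.

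These counts leaned on single libraries. On the TPM scale, leaving out Bil_2D replicate 1 gave 14 that rose and 5 that fell, and leaving out Bil_2D replicate 2 gave 5 and 3. Leaving out Hep_3D replicate 1 gave 17 and 6, and leaving out Hep_3D replicate 2 gave 10 and 7. Gstm3, Gstz1, Mgst1, Sult1d1 and Ugt3a2 rose, and Gsta4, Mgst3 and Sult4a1 fell, whichever of the 4 libraries was left out. Gstm3 and Ugt3a2 had passed the filter through Hep_3D alone, and the leave-outs used the same filter, so their calls are no sign of stability.

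**Figure D1:**
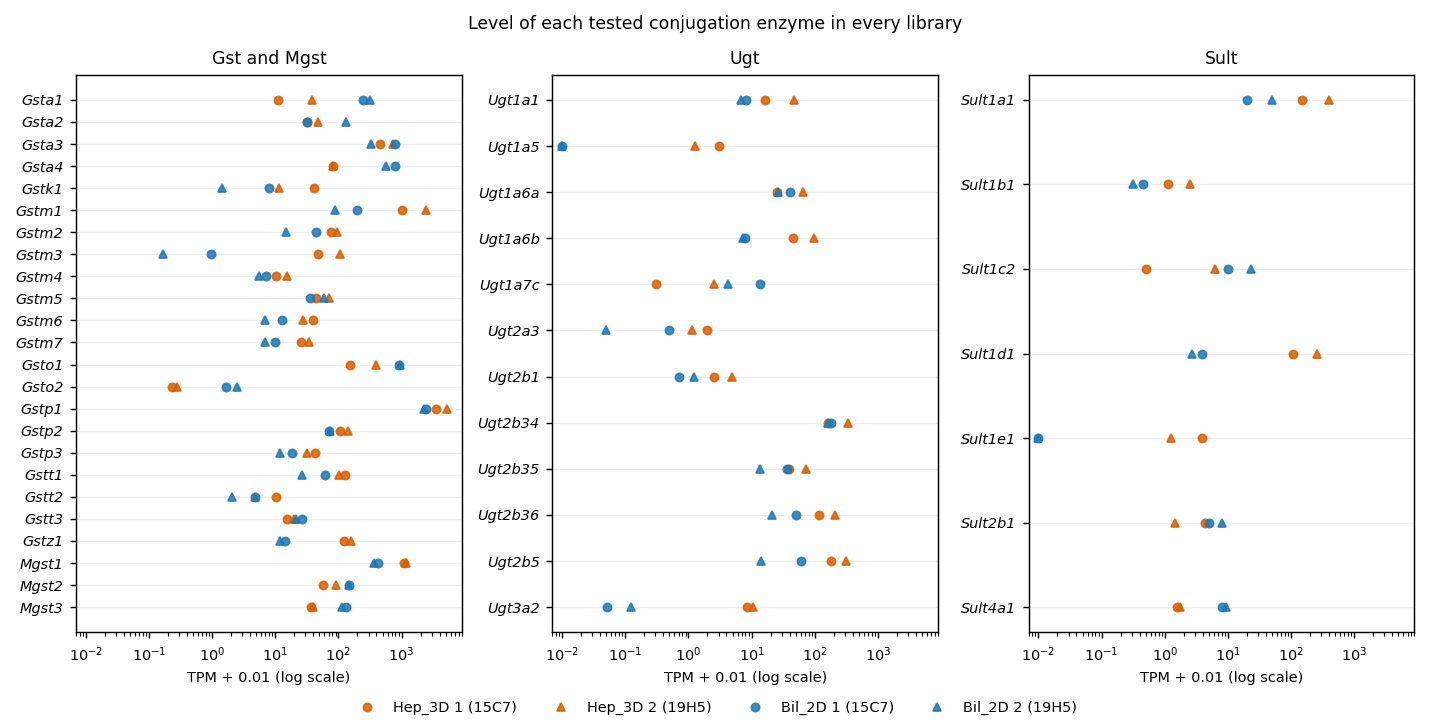
Level of each of the 43 tested members, in TPM plus 0.01 on a log axis, with 1 point per library (orange Hep_3D, blue Bil_2D, circles clone 15C7, triangles clone 19H5). Gstp1 is the most abundant member in all 4 libraries, Gstm3, Sult1d1 and Ugt3a2 show wide gaps with Hep_3D higher, and Gsta1 and Gsta4 show gaps with Hep_3D lower.

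**Figure D2:**
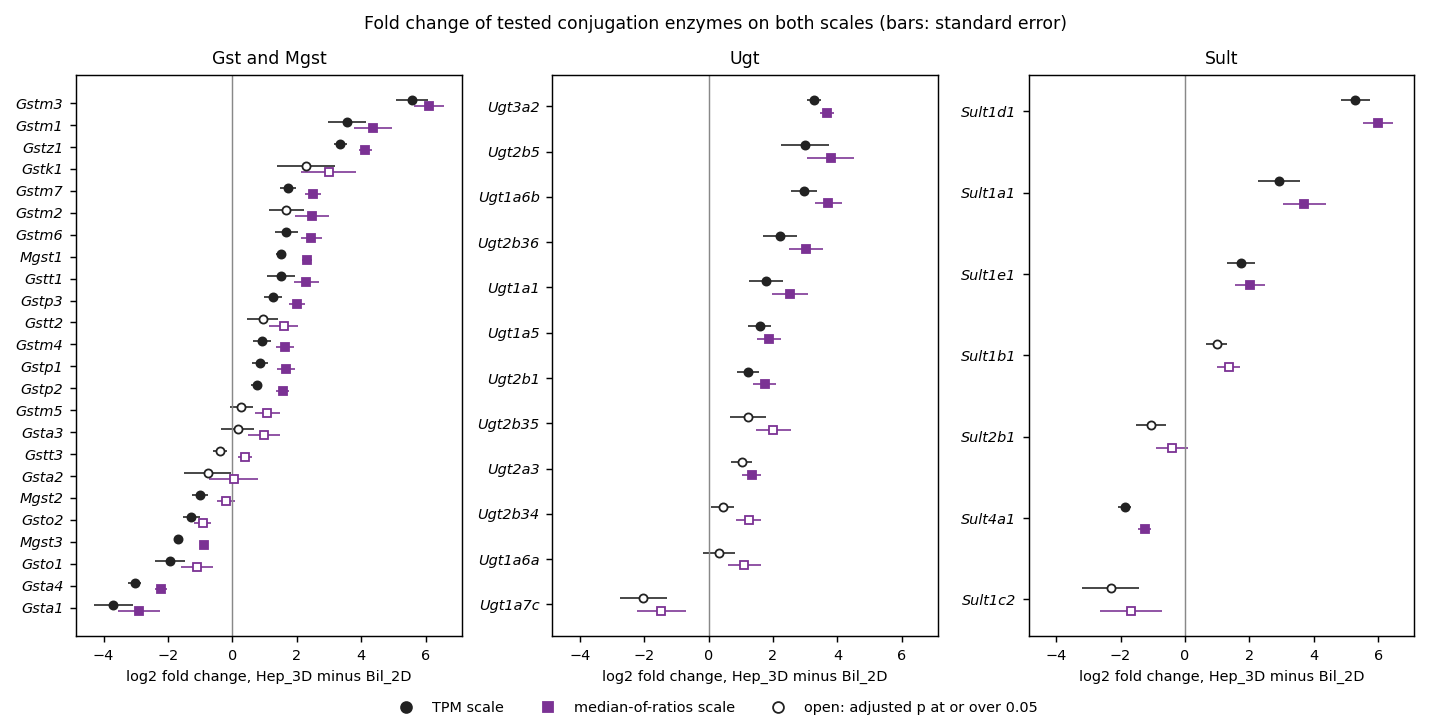
Log2 fold change, Hep_3D minus Bil_2D, of the 43 tested members with standard errors (n = 2 per group) on the TPM scale (black circles) and the size-factor scale, labelled median-of-ratios (purple squares). Filled symbols have an adjusted p under 0.05, and the purple values lie above the black ones for each gene.

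Together the members took 0.795% and 1.28% of all TPM in Hep_3D, against 0.685% and 0.589% in Bil_2D. Their summed level was 1.16 times higher in Hep_3D in clone 15C7 and 2.18 times higher in clone 19H5. Most of the pool was glutathione transferase in every library, and the make-up of that pool differed between the states. The pi class held 45.4% and 41.7% of the pool in Hep_3D, against 36.5% and 40.1% in Bil_2D. The alpha class held 7.21% and 7.02% in Hep_3D, against 27.3% and 22.8% in Bil_2D. The omega class held 1.91% and 3.02% in Hep_3D, against 13.3% and 16.0% in Bil_2D. In the other direction, the mu class held 15.7% and 21.5% in Hep_3D, against 4.44% and 3.1% in Bil_2D, and Sult1 genes held 3.35% and 5.16% in Hep_3D, against 0.503% and 1.3% in Bil_2D. The groups did not overlap in any of these 5 shares, which compare genes within a library and so do not depend on how libraries are scaled. Among the other classes, the Mgst share overlapped, at 14.7% and 10.1% in Hep_3D and 10.2% and 10.8% in Bil_2D. The Gstt and Gstk shares overlapped too. With so few libraries, groups without overlap are common, as in 83.0% of all genes by TPM.

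**Figure D3:**
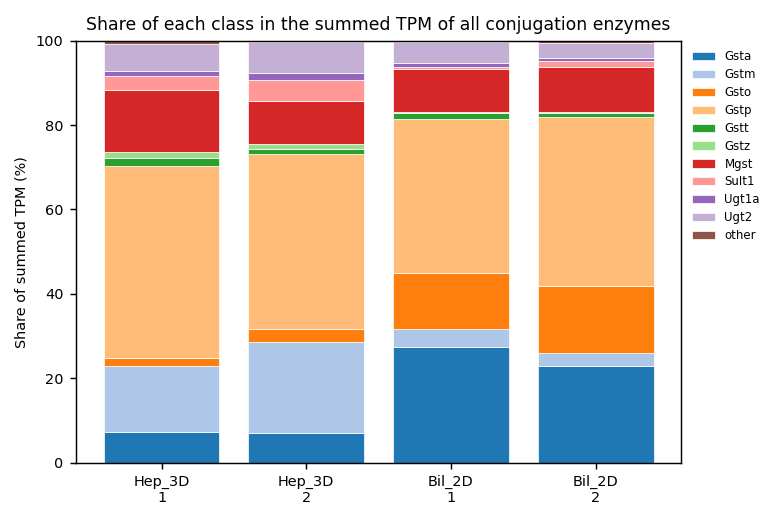
Share of each class in the summed TPM of all 66 members, in percent, for the 4 libraries; classes under 1% in all libraries are joined as other. Alpha (Gsta) and omega (Gsto) classes take smaller shares, and the mu class (Gstm) and Sult1 larger ones, in Hep_3D than in Bil_2D.

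Promoter windows from RefSeq (GRCm38.p6, the assembly behind mm10) were found for 58 of the 66 members, and the 250 bases before each start were searched on both strands. The first motif was an antioxidant response element (TGACNNNGC), the site of Nrf2. Its letters were in 4 of the 58 members (6.90%), Gsta3, Gstm5, Gstm7 and Mgst1, and in 11.5% of 27025 genes. Of these 4, Gstm7 and Mgst1 rose, and Gsta3 and Gstm5 did not pass the test. The match of Gstm7 lay in the window of a second start, inside its own transcripts. The letters of the HNF4 site CAAAGTCCA were in 0 of the 58 and in 0.451% of all genes. The xenobiotic response core GCGTG, the core of the site of the Ah receptor, was in 10 members (17.2%) and in 30.9% of all genes, and it overlapped the antioxidant match in Gstm5. A match describes letters in a window and is not evidence of a bound site. The 250 bases of 4 members are given 5′ to 3′ on the strand of the gene, with antioxidant matches in capitals. Mgst1 and Gsta3 hold those letters and differ in how they moved, while Gstm3 and Gsta1 were the members with the largest rise and the largest fall.
Mgst1, chr6:138140277-138140526, plus strand: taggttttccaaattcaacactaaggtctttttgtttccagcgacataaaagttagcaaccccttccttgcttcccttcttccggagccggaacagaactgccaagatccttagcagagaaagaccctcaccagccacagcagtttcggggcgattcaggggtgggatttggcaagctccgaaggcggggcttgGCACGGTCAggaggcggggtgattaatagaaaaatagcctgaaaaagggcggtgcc
Gsta3, chr1:21240335-21240584, plus strand: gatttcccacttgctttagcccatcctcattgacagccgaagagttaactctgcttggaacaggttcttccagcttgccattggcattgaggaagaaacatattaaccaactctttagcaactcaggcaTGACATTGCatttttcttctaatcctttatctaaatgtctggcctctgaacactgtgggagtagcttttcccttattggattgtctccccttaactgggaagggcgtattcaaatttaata
Gstm3, chr3:107969175-107969424, minus strand: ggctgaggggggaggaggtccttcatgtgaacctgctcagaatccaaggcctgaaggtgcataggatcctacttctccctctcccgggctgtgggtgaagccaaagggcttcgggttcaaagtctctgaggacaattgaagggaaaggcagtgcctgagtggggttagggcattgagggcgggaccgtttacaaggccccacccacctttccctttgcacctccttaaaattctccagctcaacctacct
Gsta1, chr9:78230419-78230668, plus strand: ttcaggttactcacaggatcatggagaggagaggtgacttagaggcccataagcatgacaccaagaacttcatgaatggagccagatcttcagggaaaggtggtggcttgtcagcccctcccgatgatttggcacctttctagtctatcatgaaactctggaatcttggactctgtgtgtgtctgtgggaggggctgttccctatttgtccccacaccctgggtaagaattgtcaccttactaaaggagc
Gstm3 and Gsta1, which moved furthest apart, held none of these motifs in the window. The antioxidant letters stand 48 to 56 bases before the start of Mgst1, on the opposite strand, and 113 to 121 before that of Gsta3, on the strand of the gene. The last bases of the Gsta3 window lie past the first annotated start of the gene.

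Of the 4 alpha class glutathione transferases, Gsta1 and Gsta4 fell, and Gsta2 and Gsta3 did not pass the test. Over all genes tested, 51.9% fell by TPM and 9.54% by size factors. Gsta1, Gsta2 and Gsta4 lie together on chromosome 9 (78191966 to 78347192) and Gsta3 lies apart on chromosome 1 (21240565 to 21265575). Gsta1, an inducible alpha enzyme, stood at 11 and 38.4 TPM in Hep_3D, against 248 and 318 TPM in Bil_2D (log2 fold change -3.70, SE 0.61, adjusted p = 0.0109). Gsta4, which conjugates 4-hydroxynonenal from oxidised lipids, stood at 81.9 and 80.8 TPM in Hep_3D, against 797 and 564 TPM in Bil_2D (log2 fold change -3.03, SE 0.20, adjusted p = 0.0041). Both fell, the groups were far apart in both, and both also fell on the size-factor scale (-2.90 and -2.21). Gsta1 lost its call without Bil_2D replicate 1 (adjusted p = 0.0571) and without Bil_2D replicate 2 (0.0627). Gsta2, a near copy of Gsta1, stood at 31.4 and 46.9 TPM in Hep_3D and 32 and 133 TPM in Bil_2D, with overlapping groups and an adjusted p of 0.407. Because reads of Gsta1 and Gsta2 may be split between them, their sum is the safer value, at 42.4 and 85.3 TPM in Hep_3D, against 280 and 452 TPM in Bil_2D. Gsta3, the mouse enzyme best known for conjugating aflatoxin epoxide, stood at 448 and 735 TPM in Hep_3D and 792 and 331 TPM in Bil_2D. Its groups overlapped (log2 fold change 0.16, SE 0.51, adjusted p = 0.797). Gsta3 therefore made up 78.3% and 81.6% of alpha class TPM in Hep_3D, against 42.4% and 24.6% in Bil_2D. Gsta4 made up 14.3% and 8.97% in Hep_3D, against 42.6% and 41.9% in Bil_2D.

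All 7 mu class genes, which form a cluster on chromosome 3 (107895854 to 108045179), had higher means in Hep_3D, and 5 of them rose. By TPM, 6.80% of all genes tested rose. Gstm1, the main mu enzyme of mouse liver, stood at 1006 and 2416 TPM in Hep_3D, against 194 and 89.3 TPM in Bil_2D (log2 fold change 3.56, SE 0.59, adjusted p = 0.0108). Gstm3 stood at 47.7 and 105 TPM in Hep_3D, against 0.944 and 0.156 TPM in Bil_2D (log2 fold change 5.58, SE 0.49, adjusted p = 0.00513). This was the largest fold change of any tested member on the log2(TPM + 1) scale, and Gstm3 passed the filter through Hep_3D alone. Gstm7 stood at 25.5 and 34.7 TPM in Hep_3D, against 9.75 and 6.97 TPM in Bil_2D (adjusted p = 0.00873), and it rose. Gstm6 stood at 38.9 and 27.5 TPM in Hep_3D, against 13 and 6.91 TPM in Bil_2D (adjusted p = 0.0188). Gstm4 stood at 10.1 and 15.6 TPM in Hep_3D, against 7 and 5.46 TPM in Bil_2D (adjusted p = 0.0453). In these 5 genes no Bil_2D library reached the lower Hep_3D library. Gstm2 stood at 76.4 and 94.8 TPM in Hep_3D, against 44.6 and 14.9 TPM in Bil_2D, without overlap, and missed the threshold on the TPM scale (adjusted p = 0.0554) but passed on the size-factor scale (0.041). Gstm5 overlapped, at 43.7 and 70.6 TPM in Hep_3D and 35.5 and 58.7 TPM in Bil_2D (adjusted p = 0.532). Gstm5, known mainly from brain and testis, made up 3.5% and 2.55% of mu class TPM in Hep_3D, against 11.7% and 32.2% in Bil_2D. The call of Gstm1 was lost without Bil_2D replicate 2 (adjusted p = 0.0551), as was that of Gstm7 (0.0511). Gstm6 lost its call without Bil_2D replicate 2 (0.0621), Hep_3D replicate 1 (0.0878) or Hep_3D replicate 2 (0.0593). Gstm4 lost its call in each of the 4 leave-outs, at 0.0501 to 0.176, and with clone as a replicate block (0.0606). Mu class genes are close paralogs, so the division of reads among them is uncertain.

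All 3 pi class genes, on chromosome 19 (4035411 to 4059605), rose, beside 6.80% of all genes by TPM and 11.9% by size factors. Gstp1 stood at 3463 and 5182 TPM in Hep_3D, against 2414 and 2280 TPM in Bil_2D (log2 fold change 0.85, SE 0.25, adjusted p = 0.0436). Gstp1 was the most abundant conjugation enzyme transcript in all 4 libraries, and its 2 groups did not overlap. Gstp2, its near copy, stood at 105 and 140 TPM in Hep_3D, against 69.9 and 73.2 TPM in Bil_2D (adjusted p = 0.0259). Gstp3 stood at 42.6 and 31.4 TPM in Hep_3D, against 18.5 and 11.9 TPM in Bil_2D (adjusted p = 0.0225). Gstp1 held 95.9% and 96.8% of the class in Hep_3D and 96.5% and 96.4% in Bil_2D, and Gstp3 held 1.18% and 0.587% in Hep_3D and 0.738% and 0.505% in Bil_2D. On the size-factor scale each of the 3 rose, by 1.67, 1.56 and 2.02 log2 units. Each kept its TPM-scale call in only 1 of the 4 leave-outs. Gstp1 lost its call without Bil_2D replicate 1 (adjusted p = 0.13), Bil_2D replicate 2 (0.152) or Hep_3D replicate 2 (0.142), and with clone as a replicate block (0.0511). The losses of Gstp2 were without Bil_2D replicate 1 (0.114), Bil_2D replicate 2 (0.0947) and Hep_3D replicate 2 (0.0724), and those of Gstp3 without Bil_2D replicate 2 (0.0823), Hep_3D replicate 1 (0.0973) and Hep_3D replicate 2 (0.0594).

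Among the smaller Gst classes, zeta rose most. Gstz1, also the maleylacetoacetate isomerase of tyrosine breakdown, stood at 121 and 161 TPM in Hep_3D, against 14 and 11.7 TPM in Bil_2D (log2 fold change 3.35, SE 0.20, adjusted p = 0.00358). Gstt1, the theta enzyme that acts on small halogenated hydrocarbons, stood at 127 and 103 TPM in Hep_3D, against 60.5 and 26.1 TPM in Bil_2D (log2 fold change 1.5, SE 0.43, adjusted p = 0.0416). The gap was wide in Gstz1 and narrower in Gstt1, whose call was lost without Bil_2D replicate 2 (0.0632), Hep_3D replicate 1 (0.162) or Hep_3D replicate 2 (0.121). Gstk1, a transferase of mitochondria and peroxisomes, stood at 41.5 and 11.4 TPM in Hep_3D, against 7.98 and 1.42 TPM in Bil_2D. Clone 15C7 was higher than clone 19H5 in both states, so Gstk1 missed the threshold without the clone (log2 fold change 2.30, SE 0.90, adjusted p = 0.0866) and passed with clone as a replicate block (0.00904). Gstt2 did likewise, with 10.2 and 4.76 TPM in Hep_3D and 4.73 and 2.05 TPM in Bil_2D, an adjusted p of 0.157 and one of 0.0177 with the block. Gstt3, at 15.5 and 20.1 TPM in Hep_3D and 26.1 and 21.1 TPM in Bil_2D, did not pass (0.167). Its log2 fold change was -0.39 by TPM and 0.39 on the size-factor scale.

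The omega class went the other way on the TPM scale, where 51.9% of all genes tested fell. Gsto1, which reduces dehydroascorbate and mixed disulfides, stood at 152 and 387 TPM in Hep_3D, against 909 and 943 TPM in Bil_2D (log2 fold change -1.93, SE 0.47, adjusted p = 0.0278). Its neighbour Gsto2 stood at 0.222 and 0.265 TPM in Hep_3D, against 1.62 and 2.43 TPM in Bil_2D (log2 fold change -1.27, SE 0.25, adjusted p = 0.0164). Gsto2 passed the filter through Bil_2D alone and so had to be lower in Hep_3D. The Bil_2D values of Gsto1 were nearly equal while the Hep_3D values were far apart. Neither gene passed on the size-factor scale (-1.11 and -0.92, adjusted p = 0.181 and 0.0735). Gsto1 lost its TPM-scale call without Bil_2D replicate 1 (0.108) or Bil_2D replicate 2 (0.108). For Gsto2 the adjusted p was 0.0498 without Bil_2D replicate 1 and 0.0579 to 0.0617 in the other leave-outs.

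The 3 membrane-bound transferases split, where 6.80% of all genes tested rose and 51.9% fell by TPM. Mgst1, an abundant enzyme of the endoplasmic reticulum and outer mitochondrial membrane, stood at 1076 and 1165 TPM in Hep_3D, against 423 and 370 TPM in Bil_2D (log2 fold change 1.5, SE 0.14, adjusted p = 0.00558). Mgst3, which reduces lipid hydroperoxides, stood at 36.9 and 39.4 TPM in Hep_3D, against 134 and 116 TPM in Bil_2D (log2 fold change -1.68, SE 0.14, adjusted p = 0.00513). Replicates of both genes were close, and both calls also held on the size-factor scale (2.31 and -0.88). Mgst2, which can make leukotriene C4, stood at 57.4 and 91.5 TPM in Hep_3D, against 145 and 149 TPM in Bil_2D (log2 fold change -1.01, SE 0.25, adjusted p = 0.0292). It did not pass on the size-factor scale (-0.20, adjusted p = 0.626), without Bil_2D replicate 1 (0.112) or without Bil_2D replicate 2 (0.113). Mgst1 made up 91.9% and 89.9% of Mgst TPM in Hep_3D, against 60.2% and 58.3% in Bil_2D.

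**Figure D4:**
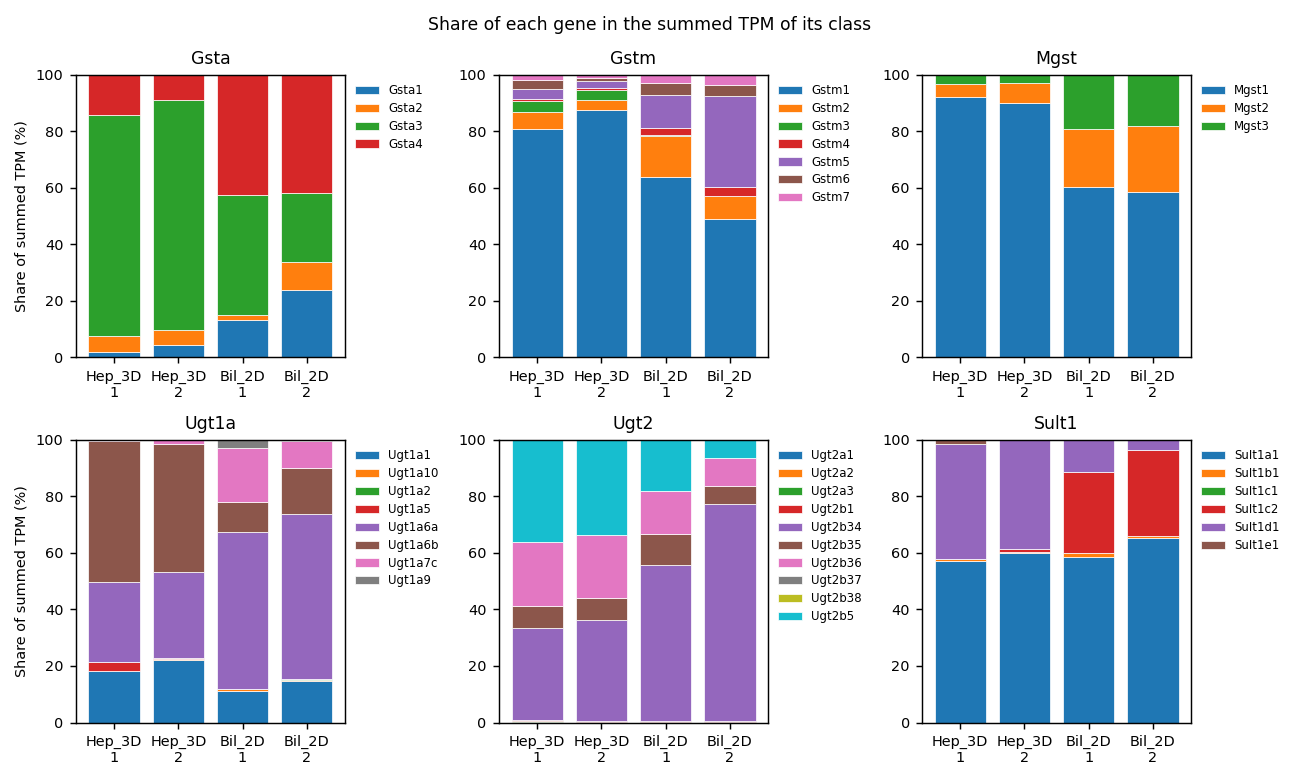
Share of each gene in the summed TPM of its class, in percent, for 6 classes and the 4 libraries. Gsta3, Gstm1, Mgst1, Ugt1a6b, Ugt2b5 and Sult1d1 take larger shares in both Hep_3D libraries than in either Bil_2D library.

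Of the 20 Ugt genes, 12 were tested, 7 rose and 0 fell, with 8 and 0 by size-factor scaling, where 6.80% and 51.9% of all genes did so by TPM and 11.9% and 9.54% by size factors. Of the 7, Ugt1a5 and Ugt3a2 passed the filter through Hep_3D alone. The 5 remaining tested Ugt genes were not called on the TPM scale. Among these, Ugt2a3 also passed the filter through Hep_3D alone. The number that rose dropped to 4 when Bil_2D replicate 1 was left out, to 1 for Bil_2D replicate 2 and to 3 for Hep_3D replicate 2. Ugt1a genes share their last exons and differ in the first, on chromosome 1 (88055411 to 88220002), so values of single Ugt1a genes rest on reads over the first exon and are uncertain. Ugt1a1, the enzyme that conjugates bilirubin, stood at 16.3 and 47.1 TPM in Hep_3D, against 8.09 and 6.72 TPM in Bil_2D (log2 fold change 1.78, SE 0.53, adjusted p = 0.0444). The groups did not overlap, and the lower Hep_3D library lay closer to both Bil_2D libraries than to the other Hep_3D library. Ugt1a6b, which conjugates simple phenols, stood at 44.9 and 97.1 TPM in Hep_3D, against 7.86 and 7.38 TPM in Bil_2D (log2 fold change 2.96, SE 0.40, adjusted p = 0.00779). Its near copy Ugt1a6a overlapped, at 25.5 and 64.2 TPM in Hep_3D and 40 and 26.4 TPM in Bil_2D (adjusted p = 0.618). The sum of both was 70.4 and 161 TPM in Hep_3D, against 47.9 and 33.8 TPM in Bil_2D. Ugt1a5 stood at 3.03 and 1.25 TPM in Hep_3D and was listed at 0 in both Bil_2D libraries. Ugt1a7c, at 0.295 and 2.56 TPM in Hep_3D and 13.6 and 4.3 TPM in Bil_2D, did not overlap but missed the threshold (adjusted p = 0.0708). It made up 0.327% and 1.2% of Ugt1a TPM in Hep_3D, against 18.8% and 9.48% in Bil_2D. Ugt1a1 lost its call without Bil_2D replicate 1 (0.133), Bil_2D replicate 2 (0.157) or Hep_3D replicate 2 (0.0577). Ugt1a5 lost its call without Bil_2D replicate 1 (0.091) or Bil_2D replicate 2 (0.0857), and Ugt1a6b without Bil_2D replicate 2 (0.0511).

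Ugt2 genes lie in a row on chromosome 5 (86889770 to 87490871), beside Sult1b1, Sult1d1 and Sult1e1 (87513327 to 87591611). Of the 13 members in this stretch 9 were tested, 5 rose and 0 fell, beside 6.80% and 51.9% of all genes by TPM. Sult1e1, 1 of the 5, and the uncalled Sult1b1 and Ugt2a3 passed the filter through Hep_3D alone and so had to be higher there. Ugt2b5, a liver isoform, stood at 183 and 314 TPM in Hep_3D, against 59.9 and 14.1 TPM in Bil_2D (log2 fold change 2.99, SE 0.75, adjusted p = 0.0288). Ugt2b36 stood at 115 and 211 TPM in Hep_3D, against 50.7 and 21.1 TPM in Bil_2D (log2 fold change 2.22, SE 0.53, adjusted p = 0.0255). Ugt2b1 stood at 2.58 and 4.85 TPM in Hep_3D, against 0.704 and 1.22 TPM in Bil_2D (adjusted p = 0.0369). All 3 rose, and in Ugt2b5 and Ugt2b36 clone 19H5 was the higher library in Hep_3D and the lower one in Bil_2D. Ugt2b34 did not pass, at 165 and 335 TPM in Hep_3D and 184 and 165 TPM in Bil_2D (adjusted p = 0.359). Ugt2b35, at 39 and 72.7 TPM in Hep_3D and 36.3 and 13.5 TPM in Bil_2D, did not pass either (0.128). Ugt2b34 made up 32.6% and 35.7% of Ugt2 TPM in Hep_3D, against 55.5% and 76.8% in Bil_2D, while Ugt2b5 made up 36% and 33.4% in Hep_3D, against 18% and 6.54% in Bil_2D. Ugt2a3, at 1.95 and 1.14 TPM in Hep_3D and 0.477 and 0.0396 TPM in Bil_2D, had an adjusted p of 0.0513, which was 0.0226 with clone as a replicate block. Each of the 3 calls held in 1 leave-out alone. Ugt2b5 lost its call without Bil_2D replicate 2 (0.0537), Hep_3D replicate 1 (0.0823) or Hep_3D replicate 2 (0.133), and Ugt2b36 without the same libraries (0.0762, 0.0576 and 0.113). Ugt2b1 lost its call without Bil_2D replicate 1 (0.149), Bil_2D replicate 2 (0.0863) or Hep_3D replicate 2 (0.106). Ugt2b genes are close paralogs, so their single values are uncertain.

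Ugt3a2, on chromosome 15, belongs to the family whose human members use sugar donors other than UDP-glucuronic acid. It stood at 8.49 and 10.5 TPM in Hep_3D, against 0.0416 and 0.114 TPM in Bil_2D (log2 fold change 3.28, SE 0.22, adjusted p = 0.0041). Ugt3a1 was below 0.3 TPM in all libraries. The standard error of Ugt3a2 was the smallest among the Ugt genes that rose, with clone differences of 3.19 in 15C7 and 3.37 in 19H5. Its Bil_2D values were near the floor, where log2(TPM + 1) compresses any spread, so this is no sign of close agreement. Ugt3a2 also passed the filter through Hep_3D alone and so had to be higher there.

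Of the 21 Sult genes, 7 were tested, 3 rose and 1 fell, beside 6.80% and 51.9% of all genes. Sult1e1, among the 3 that rose, and the uncalled Sult1b1 passed the filter through Hep_3D alone. Sult1a1, the main phenol sulfotransferase of liver, stood at 152 and 398 TPM in Hep_3D, against 20.2 and 50 TPM in Bil_2D (log2 fold change 2.91, SE 0.65, adjusted p = 0.0218). Sult1d1, which sulfates catecholamines in mouse, stood at 108 and 254 TPM in Hep_3D, against 3.88 and 2.72 TPM in Bil_2D (log2 fold change 5.29, SE 0.46, adjusted p = 0.00513). Sult1e1, the oestrogen sulfotransferase, stood at 3.92 and 1.25 TPM in Hep_3D and was listed at 0 in both Bil_2D libraries (adjusted p = 0.0301). In Sult1a1 clone 19H5 was higher in both states, and the clone differences were nearly equal (2.85 and 2.97). Sult1a1 kept a similar share of Sult1 TPM, 57.3% and 60.1% in Hep_3D and 58.7% and 65.4% in Bil_2D. Sult1d1 made up 40.7% and 38.4% in Hep_3D, against 11.3% and 3.57% in Bil_2D, and Sult1c2 made up 0.184% and 0.943% in Hep_3D, against 28.8% and 30.6% in Bil_2D. The second most abundant Sult1 transcript was thus Sult1d1 in Hep_3D and Sult1c2 in Bil_2D. Sult1c2 stood at 0.49 and 6.24 TPM in Hep_3D, against 9.91 and 23.4 TPM in Bil_2D, and its adjusted p was 0.0839 without and 0.0141 with clone as a replicate block. Sult1a1 lost its call without Bil_2D replicate 1 (0.0879), Bil_2D replicate 2 (0.0513) or Hep_3D replicate 2 (0.0833), and Sult1e1 without Bil_2D replicate 1 (0.112) or Bil_2D replicate 2 (0.105). Without either Bil_2D library 1 Sult gene rose.

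Sult4a1, a mainly neuronal member without a known substrate, was the Sult gene that fell. It stood at 1.54 and 1.73 TPM in Hep_3D, against 7.99 and 9.32 TPM in Bil_2D (log2 fold change -1.87, SE 0.20, adjusted p = 0.00597). The call held on the size-factor scale (-1.25). Sult2b1, a cholesterol and pregnenolone sulfotransferase, stood at 4.31 and 1.43 TPM in Hep_3D and 5.08 and 8.12 TPM in Bil_2D, with an adjusted p of 0.117. Sult1b1, at 1.12 and 2.53 TPM in Hep_3D and 0.446 and 0.309 TPM in Bil_2D, did not pass (0.0614).

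The hydroxysteroid and bile acid sulfotransferases of the Sult2a group were nearly absent from the table. Of the 23 members below the filter, none exceeded 2.18 TPM (Ugt1a9 in Bil_2D replicate 1), and 8 were listed at 0 in all 4 libraries. Those 8 were Sult1c1, Sult2a1, Sult2a3, Sult2a4, Sult2a5, Sult2a7, Ugt2a1 and Ugt2b37. The other Sult genes below the filter, the rest of Sult2a and all of Sult3, Sult5 and Sult6, were at or under 0.327 TPM. Gstt4 was listed at 0.105 TPM in Hep_3D replicate 1 and at 0 elsewhere. Since the table holds no counts, a 0 may also be an estimate that failed, and these genes are only described as listed at 0.

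Both clones moved the same way for 40 of the 43 tested members on the TPM scale. The share over all genes was not counted, but 83.0% of them had groups without overlap, where both clones must agree. The direction was also fixed for the 7 members that passed the filter through 1 group alone. In clone 15C7, 28 were higher and 15 lower in Hep_3D, with a median log2 difference of 0.76. In clone 19H5, 31 were higher and 12 lower, with a median of 1.25. For 19 of the 21 members that rose, the difference was larger in clone 19H5. For 5 of the 7 that fell, it was larger in clone 15C7. Shares over all genes were not counted for these clone comparisons either, so they do not set the members apart from other genes. Gstm1 differed by 2.37 log2 units in 15C7 and by 4.74 in 19H5, Gstm2 by 0.76 and 2.59, and Ugt2b5 by 1.59 and 4.39. Hepatocyte markers in Bil_2D were also lower in clone 19H5 (606 TPM) than in clone 15C7 (2748 TPM), and the part of that gap in the clone differences was not tested. With 1 pair of libraries per clone, the clones' differences could not be tested against each other.

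Genes that supply donors or carry away conjugates are described by the same test, with no test of their difference from the enzymes. Beside 6.80% higher and 51.9% lower over all genes, 0 of 6 genes of UDP-glucuronic acid supply and removal rose and 2 fell, with a median log2 fold change of -0.04. On the size-factor scale 3 rose and 0 fell (median 0.73), beside 11.9% and 9.54% of all genes. Ugdh, which makes UDP-glucuronic acid, stood at 130 and 176 TPM in Hep_3D, against 248 and 263 TPM in Bil_2D (adjusted p = 0.0302). Its log2 fold change was -0.75 by TPM and 0.06 on the size-factor scale. Gusb, the lysosomal enzyme that splits glucuronides, stood at 30.9 and 25 TPM in Hep_3D, against 71.1 and 54.1 TPM in Bil_2D (adjusted p = 0.0134). Ugdh lost its call without Bil_2D replicate 1 (0.106), Bil_2D replicate 2 (0.121) or Hep_3D replicate 1 (0.0767), and Gusb without Bil_2D replicate 1 (0.066) or Hep_3D replicate 2 (0.0652). The number that fell dropped to 0 when Bil_2D replicate 1 was left out and to 1 for each other library. Gusb also missed the threshold by size-factor scaling (0.251).

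Of 10 genes of PAPS supply and sulfate handling, 1 rose and 4 fell (median -0.60), and 1 each did so by size-factor scaling. These shares are near the 6.80% and 51.9% of all genes by TPM and the 11.9% and 9.54% by size factors. A pair of sulfate transporters moved in opposite directions. Slc26a1, of the hepatocyte sinusoidal membrane, stood at 17.6 and 20.8 TPM in Hep_3D, against 0.264 and 0.418 TPM in Bil_2D (log2 fold change 3.91, adjusted p = 0.00312). This gene, the only one of the list that rose, passed the filter through Hep_3D alone and so had to be higher there. Slc26a2, a widely expressed sulfate transporter, stood at 10.3 and 8.56 TPM in Hep_3D, against 112 and 124 TPM in Bil_2D (log2 fold change -3.52, adjusted p = 0.00247). Papss1, a PAPS synthase, stood at 27.9 and 17.3 TPM in Hep_3D, against 48.9 and 38.4 TPM in Bil_2D (adjusted p = 0.045), and fell. Bpnt1, which clears the product PAP, stood at 60 and 59.5 TPM in Hep_3D, against 132 and 102 TPM in Bil_2D (adjusted p = 0.0128). Neither Papss1 nor Bpnt1 passed on the size-factor scale (-0.16 and -0.14). Papss1 lost its call without Bil_2D replicate 1 (0.183), Bil_2D replicate 2 (0.0984) or Hep_3D replicate 2 (0.124), and Bpnt1 without Bil_2D replicate 1 (0.0573), Hep_3D replicate 1 (0.0594) or Hep_3D replicate 2 (0.0635). The number that fell dropped to 1 when Bil_2D replicate 1 was left out and to 2 for Hep_3D replicate 2.

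Of 14 tested genes of glutathione synthesis, recycling and breakdown, 5 rose and 4 fell (median -0.02), beside 6.80% and 51.9% of all genes by TPM. By size-factor scaling 6 rose and 2 fell (median 0.75), beside 11.9% and 9.54% of all genes. Gclc, the rate-limiting enzyme of glutathione synthesis, stood at 174 and 163 TPM in Hep_3D, against 1308 and 962 TPM in Bil_2D (log2 fold change -2.73, adjusted p = 0.00435). Gsr, which regenerates reduced glutathione, stood at 62.3 and 68.5 TPM in Hep_3D, against 233 and 293 TPM in Bil_2D (log2 fold change -1.98, adjusted p = 0.00513). G6pdx, a source of NADPH, stood at 14.1 and 29.4 TPM in Hep_3D, against 80.4 and 94.8 TPM in Bil_2D (adjusted p = 0.0135). These 3 fell, as did Gsta1 and Gsta4, though G6pdx missed the threshold by size-factor scaling (0.0961). Anpep, Ggt1 and Oplah, which act in glutathione breakdown, rose. Of these, Anpep passed the filter through Hep_3D alone and so had to be higher there. The synthesis genes Gclm, Gss and Slc7a11 and the breakdown genes Ggct and Chac2 were not called, with log2 fold changes of -0.46, 0.17, 0.24, -0.22 and -0.45. By size-factor scaling Gss rose (0.98, adjusted p = 0.0309). Anpep, a peptidase that completes this breakdown, stood at 15.3 and 8.77 TPM in Hep_3D, against 0.659 and 0.271 TPM in Bil_2D (log2 fold change 3.12, adjusted p = 0.00606). Ggt1, which removes the glutamyl group, had 13.4 and 13 TPM in Hep_3D, against 3.67 and 1.81 TPM in Bil_2D. Oplah, which recycles oxoproline, had 57.2 and 29.6 TPM in Hep_3D, against 14.1 and 5.16 TPM in Bil_2D. G6pdx lost its call without Bil_2D replicate 1 (0.0636) or Bil_2D replicate 2 (0.0726), Ggt1 without Hep_3D replicate 1 (0.0518) or Hep_3D replicate 2 (0.0529), and Oplah without Bil_2D replicate 2 (0.0974), Hep_3D replicate 1 (0.135) or Hep_3D replicate 2 (0.0691). The number that rose dropped to 2 when Bil_2D replicate 2 was left out, to 1 for Hep_3D replicate 1 and to 2 for Hep_3D replicate 2.

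Among regulators of these enzymes, 7 of 20 rose and 6 fell (median -0.21), beside 6.80% and 51.9% of all genes by TPM. The 7 include a gene that passed the filter through Hep_3D alone and so had to be higher there. By size-factor scaling 9 rose and 2 fell (median 0.57), beside 11.9% and 9.54% of all genes. The share that fell by size factors was near that of all genes. Nfe2l2, which encodes the oxidant-responsive factor Nrf2, stood at 39.9 and 38.4 TPM in Hep_3D, against 166 and 129 TPM in Bil_2D (log2 fold change -1.88, adjusted p = 0.00528). Cebpa, a factor of mature hepatocytes, stood at 106 and 77.4 TPM in Hep_3D, against 4.91 and 4.65 TPM in Bil_2D (log2 fold change 3.99, adjusted p = 0.00312). Foxa3, another liver factor, also rose, with 72.6 and 53.3 TPM in Hep_3D, against 16.3 and 4.38 TPM in Bil_2D. The fatty acid receptor gene Ppara rose too, with 16.8 and 17.6 TPM in Hep_3D, against 1.62 and 2.28 TPM in Bil_2D. Foxa2, a forkhead factor of liver and bile duct, had 22.6 and 29.1 TPM in Hep_3D, against 70.6 and 81 TPM in Bil_2D, and fell on the TPM scale but missed the threshold by size-factor scaling (0.0756). Foxa3 lost its call without Hep_3D replicate 1 (0.104) or Hep_3D replicate 2 (0.0843). The number that rose dropped to 3 when either Hep_3D library was left out, and the number that fell dropped to 3 for Bil_2D replicate 2 and for Hep_3D replicate 2.

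Of 8 efflux carriers of conjugates, 1 rose and 4 fell (median -0.94), and 1 each did so on the size-factor scale (median -0.14). These shares are near the 6.80% and 51.9% of all genes by TPM and the 11.9% and 9.54% by size factors. Abcc6, a hepatocyte carrier, stood at 10.1 and 10.4 TPM in Hep_3D, against 0.171 and 0.0314 TPM in Bil_2D (log2 fold change 3.36, adjusted p = 0.00358). As the only carrier that rose, it had passed the filter through Hep_3D alone and so had to be higher there. Abcc4, which exports conjugates and bile acids to blood, stood at 18.1 and 22 TPM in Hep_3D, against 227 and 146 TPM in Bil_2D (log2 fold change -3.12, adjusted p = 0.00513). Abcc1, a basolateral exporter, had 7.22 and 8.62 TPM in Hep_3D, against 23.5 and 26.3 TPM in Bil_2D. Abcc5, an exporter of nucleotides, had 43.3 and 43.4 TPM in Hep_3D, against 104 and 90.4 TPM in Bil_2D. Both fell by TPM, and both missed the threshold by size-factor scaling. The canalicular carrier Abcc2 did not pass, and was named after its values were seen, at 88.1 and 89.7 TPM in Hep_3D and 151 and 112 TPM in Bil_2D (adjusted p = 0.0603). Its log2 fold change was -0.54 by TPM and 0.27 on the size-factor scale.

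Other conjugating and phase II enzymes were described by the same test. Of 16 tested, 6 rose and 0 fell (median 1.58), beside 6.80% and 51.9% of all genes by TPM. Acsm3 and Acsm5, which rose, and Inmt and Nqo1, which were not called, passed the filter through Hep_3D alone. Their direction was therefore fixed, and they enter the median. By size-factor scaling 8 rose and 0 fell (median 2.28), beside 11.9% and 9.54% of all genes. Acsm1, which activates medium-chain acids for glycine conjugation, stood at 37.8 and 63.4 TPM in Hep_3D, against 1.31 TPM in Bil_2D replicate 1 and a listed 0 in Bil_2D replicate 2 (adjusted p = 0.00574). Gnmt, glycine N-methyltransferase, stood at 62.7 and 75.3 TPM in Hep_3D, against 1.68 and 1.52 TPM in Bil_2D (log2 fold change 4.75, adjusted p = 0.00205). Baat, which joins bile acids to amino acids, stood at 27.6 and 28 TPM in Hep_3D, against 1.05 and 0.262 TPM in Bil_2D (log2 fold change 4.16, adjusted p = 0.00433).

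A last list held 15 genes outside the symbol rule, among them chloride intracellular channel proteins of glutathione transferase fold, prostaglandin and leukotriene enzymes and tyrosylprotein sulfotransferases. Of 10 tested, 1 rose and 5 fell (median -1.04), near the 6.80% and 51.9% of all genes by TPM. By size-factor scaling 2 rose and 2 fell (median -0.41), beside 11.9% and 9.54% of all genes. Clic1, of glutathione transferase fold, stood at 75.6 and 117 TPM in Hep_3D, against 413 and 483 TPM in Bil_2D (log2 fold change -2.23, adjusted p = 0.00639). Ptges, the microsomal prostaglandin E synthase of the Mgst family, stood at 0.456 and 0.311 TPM in Hep_3D, against 4.37 and 2.72 TPM in Bil_2D (adjusted p = 0.0108). It passed the filter through Bil_2D alone and so had to be lower in Hep_3D. Gstcd had 5.19 and 2.58 TPM in Hep_3D, against 14.9 and 16.9 TPM in Bil_2D, and Faah, a fatty acid amide hydrolase and no transferase, had 43.2 and 54.3 TPM in Hep_3D, against 31.3 and 18.8 TPM in Bil_2D. Ptges lost its call without Bil_2D replicate 1 (0.052) or Hep_3D replicate 2 (0.0532), and Gstcd without Bil_2D replicate 1 (0.0626) or Bil_2D replicate 2 (0.0695). Faah lost its call without Bil_2D replicate 2 (0.125), Hep_3D replicate 1 (0.103) or Hep_3D replicate 2 (0.186), and with clone as a replicate block (0.0633). The number that fell dropped to 2 when Bil_2D replicate 1 was left out and to 3 for Hep_3D replicate 2.

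**Figure D5:**
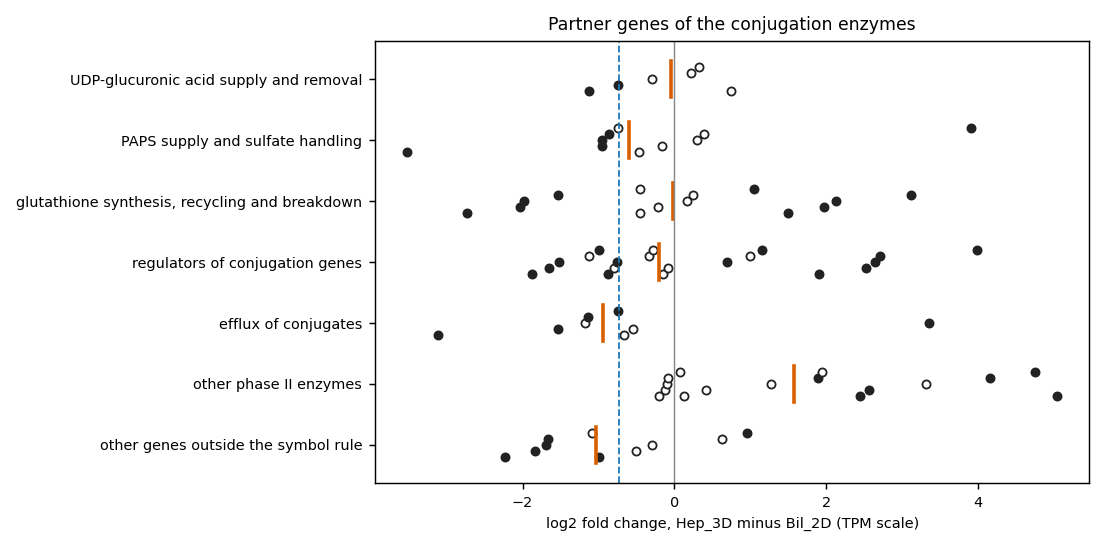
Log2 fold change on the TPM scale, Hep_3D minus Bil_2D, of each tested partner gene (n = 2 per group), with filled points at an adjusted p under 0.05, orange bars at each list's median and a dashed line at the median of all genes (-0.73). The list of other phase II enzymes has the highest median (1.58), and no gene in it is both filled and below 0. Acsm3, Acsm5, Inmt and Nqo1 of that list passed the filter through Hep_3D alone and so had to lie above 0.

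Markers of other cell types were low in both groups, with single exceptions. The 10 endothelial genes summed to 1.12 and 4.7 TPM in Hep_3D and 1.69 and 5.74 TPM in Bil_2D, of which Flt1 gave 1 and 4.48 TPM in Hep_3D and 0.427 and 5.12 TPM in Bil_2D. Of the 12 macrophage and leukocyte genes, Ptprc was below 0.1 TPM in every library, and Cd3e, Ms4a1 and Nkg7 were listed at 0. Cd14, which hepatocytes also express, made up most of that list, at 491 and 483 TPM in Hep_3D and 129 and 213 TPM in Bil_2D, and rose. Cd68 went the other way, at 0.674 and 1.74 TPM in Hep_3D, against 4.5 and 11.7 TPM in Bil_2D. It fell by TPM (adjusted p = 0.0322 by limma) and missed the threshold by size-factor scaling (0.141). The 12 fibroblast and stellate genes summed to 180 and 3.8 TPM in Hep_3D and 5.08 and 1.37 TPM in Bil_2D, where Dcn alone gave 178 TPM in Hep_3D replicate 1 and the collagen gene Col1a1 was at or below 1.17 TPM throughout. The part of Dcn-expressing cells in the results was not tested. The 7 red blood cell genes summed to 4.58 and 3.75 TPM in Hep_3D and 4.55 and 6.82 TPM in Bil_2D.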

How the data were processed

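RNA sequencing libraries of total RNA were built by Novogene after a Qiagen RNeasy extraction, per the labels' protocols. TPM values were deposited for 24493 gene symbols in 4 libraries, each summing to 1000000. Salmon, DESeq2 and mm10 are listed in the submitters' processing notes, without versions or roles, and the transcript annotation is not given in the sources used here. TPM keeps no depth, so counting error was unknown and no count model was fitted.

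The filter asked for 1 TPM or more in 2 or more libraries, which left 12336 genes. Log2(TPM + 1) was modelled with limma 3.58.1 in R 4.3.3 (lmFit, eBayes with trend), Hep_3D minus Bil_2D, and the procedure was checked on simulated data. Residual degrees of freedom numbered 2 and the prior added 2.29. Benjamini-Hochberg adjustment covered all 12336 genes, with calls under 0.05. With 2 libraries a group, the smallest exact permutation p is 0.333. Fold changes on this scale understate those of low genes. The size-factor scale divides TPM by median-of-ratios size factors from the 10434 genes that reached 1 TPM in all 4. Replicate numbers pair libraries by clone, per the labels, and the correlation across genes of 2 libraries of 1 clone, each taken as its deviation from the group mean, was 0.414. Leave-outs kept the filter of all 4 libraries and took the lone library to vary like the other group. The members and gene lists were chosen with earlier results of these data known. Some marker, regulator and motif results are not reported here. All 66 members were accounted for, and values by library are given for members that were called or averaged at least 10 TPM in a group, and up to 3 called genes a direction for each partner list. Gene positions and promoter windows are from RefSeq on GRCm38.p6.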

Additional observations from a re-analysis of the deposited data

Results flagged for a closer look

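For 3 tested members the clones moved in opposite directions on the TPM scale, with 1 pair of libraries per clone, so the difference between clones was not tested. Gsta3 was lower in Hep_3D in clone 15C7 (log2 difference -0.82) and higher in clone 19H5 (1.15). Ugt1a6a was lower in Hep_3D in clone 15C7 (-0.63) and higher in clone 19H5 (1.25). Ugt2b34 was lower in Hep_3D in clone 15C7 (-0.16) and higher in clone 19H5 (1.02). On the size-factor scale all 3 were at or above 0 in both clones, at 0.01 and 1.95 for Gsta3, 0.17 and 2.03 for Ugt1a6a, and 0.66 and 1.82 for Ugt2b34 in clones 15C7 and 19H5. Each is abundant, each was left uncalled on both scales, and Ugt1a6a has a near copy that could share its reads.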

How the results depend on the processing

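Results rest on 2 libraries a group with unknown depth, and the general shift between scales is as large as many of the differences. On the TPM scale 21 members rose and 7 fell. The number that rose was 15 to 26 under the other settings with all 4 libraries (12 settings were planned in all), and the number that fell was 4 with size-factor scaling, 4 with quantile normalization, 4 with size-factor scaling and a replicate block, and 5 to 8 under the others. With 1 library left out, 5 to 17 rose and 3 to 7 fell. On the size-factor scale with 1 library left out, a setting chosen after seeing the data, 1 to 12 rose and 0 to 2 fell. The cause was not tested. With clone as a replicate block 22 rose and 8 fell: Gstk1, Gstt2 and Ugt2a3 gained a call upward and Sult1c2 downward, and Gstm4 and Gstp1 lost theirs, with no other call of a tested member changed.

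Signs turned for members and partner genes that were mostly uncalled. With size-factor scaling the log2 fold changes were 0.04 for Gsta2, 0.39 for Gstt3 and 0.06 for Ugdh, and the same with the block added. Quantile normalization gave 0.30 for Gstt3. With 1 library left out, Gsta2 ranged from -1.77 to 0.25 (above 0 without Bil_2D replicate 2) and Gsta3 from -0.46 to 0.79 (below 0 without Bil_2D replicate 2 or Hep_3D replicate 2). Gstm5 ranged from -0.08 to 0.63 (below 0 without Bil_2D replicate 1 or Hep_3D replicate 2). Ugt1a6a ranged from -0.34 to 0.96 and Ugt2b34 from -0.08 to 0.94, both below 0 without Hep_3D replicate 2. Of the 28 called members, none turned sign under any setting run for single genes.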
